A study of Mus musculus with 2 samples.

Results

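Beta cells with a high level of Nupr1 were studied in pancreatic islets from C57BL/6J females, either virgin or multiparous. Nupr1 encodes a small nuclear protein that is induced by cellular stress. A droplet was kept if its genes numbered above 200 and below 6000, its unique molecular identifiers (UMIs, 1 per captured RNA molecule) stayed below 60000, and mitochondrial genes held under 10% of them. It was called a beta cell when Ins1 and Ins2 together held at least 20% of its UMIs and Gcg, Sst, Ppy and Pyy together held under 1%. A beta cell with at least 5 Nupr1 UMIs was a high-Nupr1 cell, so the cells were chosen by measured UMIs of Nupr1, the insulin genes and the other islet hormones. There were 956 such cells among 3126 beta cells, 7765 kept cells and 10538 barcodes in all. They were compared, within each library, with beta cells that had 0 Nupr1 UMIs and at least 10000 UMIs, called Nupr1-zero cells here.

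The islets came from wild-type female mice. Mating of the multipara group began at 9 weeks of age, these mice gave birth 3 times, and their islets were taken 3 weeks after the last delivery, while virgin littermates served as the control. The islets rested briefly in serum-containing medium, were dissociated with trypsin and were profiled with the 10x Chromium 3′ v3.1 kit, with 1 library per group. The labels do not say how many mice were pooled in a library, so the spread between animals could not be measured, no test between libraries was possible, and every interval given here is a 95% interval for counting error only.

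Beta cells make and package very large amounts of insulin, and several stress pathways adjust to that load. In the integrated stress response, kinases phosphorylate the translation factor eIF2, general protein synthesis falls, and the transcription factor ATF4 is translated. ATF4 and its partners then induce genes for amino acid synthesis and uptake, tRNA charging and feedback control. In the unfolded protein response of the endoplasmic reticulum (ER), ATF6 and XBP1 raise chaperones and folding enzymes. A C/EBP-ATF response element in promoters is bound by ATF4 with C/EBP partners, and the ER stress response element is bound by ATF6 with NF-Y.

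The promoters of genes that bear on these pathways were read from the RefSeq windows of GRCm38.p6, which run from 250 bases before to 50 bases after each transcription start. Nupr1 itself carries the C/EBP-ATF sequence TGATGNAA on the opposite strand, with its first base 110 bases before the start. The 250 bases upstream of Nupr1, at chr7:126625471-126625720 on the minus strand, are shown because Nupr1 defines the cells. Capitals mark the match.
Nupr1: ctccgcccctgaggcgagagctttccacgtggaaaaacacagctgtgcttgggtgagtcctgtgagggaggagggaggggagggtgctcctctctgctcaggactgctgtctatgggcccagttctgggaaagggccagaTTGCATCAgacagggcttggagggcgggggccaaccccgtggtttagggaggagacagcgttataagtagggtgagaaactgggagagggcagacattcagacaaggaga

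The same sequence, searched on both strands, was in 213 of the 8127 compared genes that had a RefSeq window (2.62%), and in 3.97% of all 32851 windows. It was in 6 of 16 integrated stress response regulators with a window, 5 of 16 amino acid supply genes and 5 of 13 tRNA synthetases. It was in 1 of 29 ER folding genes. The lists were drawn up by pathway, so motif shares here and below describe the lists and are not a result of these data. Among genes at least 1.5-fold higher in high-Nupr1 cells of both libraries it was in 8 of 76, namely Chac1, Trib3, Yars, Asns, Pck2, Slc1a4, Plekhh3 and Vldlr. Of the genes at least 1.5-fold lower it was in 1 of 71, Rbp4. Windows of 30 bases around the match are shown for 7 of the higher genes, all members of the lists described here, each read 5′ to 3′ along its gene.
Chac1, chr2:119351038-119351067, plus strand: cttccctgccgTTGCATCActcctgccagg
Trib3, chr2:152344028-152344057, minus strand: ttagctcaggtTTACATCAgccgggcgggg
Asns, chr6:7693214-7693243, minus strand: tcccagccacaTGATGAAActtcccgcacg
Pck2, chr14:55540152-55540181, plus strand: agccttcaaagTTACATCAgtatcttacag
Slc1a4, chr11:20332699-20332728, minus strand: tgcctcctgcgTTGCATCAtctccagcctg
Yars, chr4:129189895-129189924, plus strand: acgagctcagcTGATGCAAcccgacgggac
Vldlr, chr19:27216809-27216838, plus strand: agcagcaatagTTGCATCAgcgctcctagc

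The ER stress response element, searched on both strands, was in 13 of 8127 compared genes (0.160%) and in 9 of 29 ER folding genes with a window. It was in none of the integrated stress response regulators, amino acid supply genes or tRNA synthetases that had a window. Of the 76 higher and 71 lower genes with a window, 0 carried it, and sets of this size cannot tell 0 from 0.160%. The matches in Hspa5 and Creld2, which encode an ER chaperone and an ER-resident folding protein, are shown for comparison, with capitals for the match.
Hspa5, chr2:34772020-34772048, plus strand: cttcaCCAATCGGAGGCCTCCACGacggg
Creld2, chr15:88819515-88819543, plus strand: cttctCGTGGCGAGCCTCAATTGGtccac
A match describes the letters of the window, and factor binding was not measured.

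In the virgin library 304 of 1678 beta cells (18.1%, 16.3 to 20.04) had a high Nupr1 level. In the multipara library 652 of 1448 beta cells did (45.0%, 42.4 to 47.6). These shares are the values that define the cells and rest on 1 library each. Cells with 10 or more Nupr1 UMIs made up 9.42% of virgin and 31.4% of multipara beta cells, and those with 20 or more 2.80% and 14.5%. Beta cells without any Nupr1 UMI made up 61.9% of the virgin library (59.5 to 64.2) and 33.4% of the multipara library (30.9 to 35.9).

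**Figure D1:**
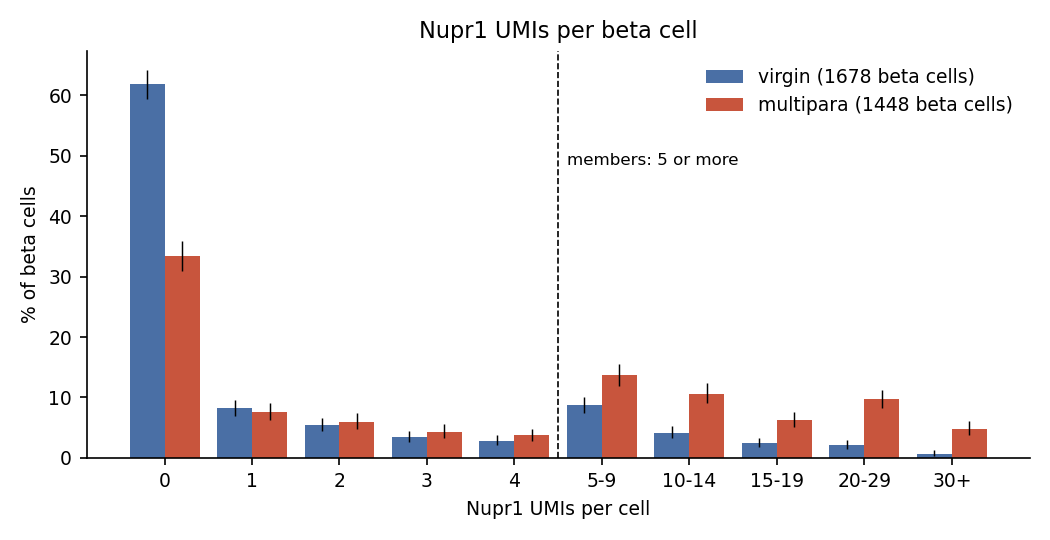
Share of beta cells (%) by the number of Nupr1 UMIs per cell in the virgin and the multipara library; the bins to the right of 4 are wider than 1 UMI, error bars are exact 95% binomial intervals, and the dashed line marks the limit of 5 UMIs. Shares at 1 to 4 UMIs overlapped between the libraries, while the zero bin was 61.9% against 33.4% and the bin of 30 or more UMIs was 0.715% against 4.83%.

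The 5-UMI limit cut through a continuous range. Just below it, 48 virgin and 54 multipara beta cells had 4 UMIs, and just above it 36 and 46 had 5. With at least 10000 UMIs, the summed level of the amino acid supply genes was 503 CPM (UMIs of a gene per 1000000 UMIs of the cells) in virgin cells with 4 Nupr1 UMIs and 462 CPM in those with 5. In multipara cells it was 417 CPM and 477 CPM. Within the high-Nupr1 cells the median was 10 Nupr1 UMIs in the virgin library (range 5 to 77) and 13.5 in the multipara library (range 5 to 68). They held 84.8% and 94.0% of the Nupr1 UMIs of all beta cells.

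Nupr1 UMIs were also counted in other endocrine cells of the same libraries. Expression by those cells and stray RNA in their droplets could not be told apart. Among cells with at least 5% of UMIs from Gcg and under 1% from insulin genes, 24 of 1070 virgin cells (2.24%, median depth 16711.5 UMIs) and 35 of 513 multipara cells (6.82%, median 18889) had any Nupr1 UMI. At least 5 UMIs were seen in 1 and 0 of them. Among cells chosen in the same way by Sst, 7 of 345 and 3 of 54 had a Nupr1 UMI, and 0 of each had 5 or more, which allows a share of up to 1.06% and 6.60% (exact upper bounds). Beta cells with at least 10000 UMIs had a Nupr1 UMI in 40.8% (median 31700 UMIs) and 70.8% (median 34661.5) of cells.

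Depth and RNA quality moved with the Nupr1 class. The median total was 33355 UMIs in virgin high-Nupr1 cells and 31047 in Nupr1-zero cells, and 35736.5 and 32799 in the multipara library. From the shallowest to the deepest of 4 depth bands above 10000 UMIs, the share with a high Nupr1 level went from 5.88% to 26.8% in the virgin and from 23.2% to 57.4% in the multipara library. When the 1509 virgin and 1292 multipara beta cells with at least 10000 UMIs were thinned to that number, at least 2 Nupr1 UMIs were left in 18.9% and 47.2% of them. Without thinning, 20.01% and 50.2% of the same cells had 5 or more.

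The mitochondrial share of UMIs had a median of 5.68% in virgin high-Nupr1 cells against 3.45% in Nupr1-zero cells, and of 4.77% against 3.06% in the multipara library. Among virgin beta cells with at least 10000 UMIs and a mitochondrial share under 3%, 6.79% had a high Nupr1 level, and of those at 8% to 10%, 38.4% did. In multipara beta cells of the same depth the values were 28.6% and 63.6%, with a maximum of 68.4% in the band of 4% to 5%. At each of the 6 bands of mitochondrial share the multipara value was the higher. What part of the gene differences goes with the mitochondrial share was examined by giving Nupr1-zero cells weights that match their distribution to that of the high-Nupr1 cells. This comparison was added after the data were seen, and its values stand beside the results below.

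The cells were beta cells by markers that the rule did not use. The sum of 7 such markers (Mafa, Pdx1, Nkx6-1, Iapp, Slc2a2, G6pc2 and Ucn3) was 48053 CPM in virgin and 47341 CPM in multipara high-Nupr1 cells, against 43234 and 43213 CPM in Nupr1-zero cells, and 0 of 7 were at 0. Markers of other endocrine cells and of ducts were present in all 4 cell groups. The endocrine sums include Gcg, Sst, Ppy and Pyy, which the beta cell rule limited, so they were bounded by the choice of cells. The PP sum is of Ppy and Pyy alone. Alpha cell markers summed to 1669 against 1757 CPM in the virgin and 1041 against 1154 CPM in the multipara library, and PP cell markers to 290 against 411 CPM and 258 against 375 CPM. Delta cell markers, Rbp4 among them, summed to 95.6 against 145 CPM and 72.9 against 124 CPM. The 6 ductal markers summed to 373 against 352 CPM and 400 against 382 CPM. Non-endocrine markers other than the ductal ones were lower. The summed levels of 12 acinar, 6 T cell and 4 red blood cell markers stayed under 14 CPM in each of the 4 cell groups. The 7 macrophage markers were higher in virgin high-Nupr1 cells, at 12.8 against 6.05 CPM, and lower in multipara ones, at 1.998 against 3.93 CPM. The 7 mesenchymal markers summed to 3.69 against 2.34 CPM and 0.510 against 0.641 CPM. The 7 endothelial markers summed to 5.59 against 20.2 CPM in the virgin and 3.49 against 13.1 CPM in the multipara library, lower in high-Nupr1 cells both times. Plvap, an endothelial gene at 1.04 against 5.73 CPM and 0.553 against 3.93 CPM, is among the genes called lower, and 46.9% of its UMIs in virgin Nupr1-zero cells came from 1 cell, as did 79.6% in multipara Nupr1-zero cells. Markers of B cells summed to 24.1 against 49.98 CPM and 10.3 against 14.4 CPM. Doublets called by Scrublet made up 1 and 3 high-Nupr1 cells and 11 and 6 Nupr1-zero cells. The libraries shared 7 barcodes, of which 0 belonged to high-Nupr1 cells.

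A gene was compared when the high-Nupr1 and Nupr1-zero cells of each library together held at least 50 of its UMIs, and was called higher or lower when it differed at least 1.5-fold in CPM in the same direction in both libraries. Of 10310 genes compared, 99 (0.96%) were higher and 97 (0.941%) were lower. The higher genes include the immunoglobulin gene Igkc, with log2 ratios of 1.35 and 0.66. In the virgin library 1 cell held 96.6% of its UMIs in high-Nupr1 cells, and 1 cell held 91.9% in Nupr1-zero cells. Without cells holding at least 5 UMIs of other cell types, the Igkc ratios were -0.015 and 0.003. When Ins1, Ins2 and Nupr1 were left out of the total, 63 were higher and 151 lower. Within single libraries 2.77% of genes were higher and 2.51% lower in the virgin, and 3.02% and 2.82% in the multipara library. Across all 10310 genes the log2 ratios of the libraries had a Pearson correlation of 0.52, and over the 3282 genes averaging 20 CPM or more it was 0.78, which describes genes and not replicates. Past 1.5-fold, 9 genes differed in opposite directions in the libraries. Ratios above 0 were seen for 61.2% of genes in the virgin library and 56.9% in the multipara one, and the median log2 ratio of all genes compared was 0.06 in the virgin library and 0.04 in the multipara one.

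**Figure D2:**
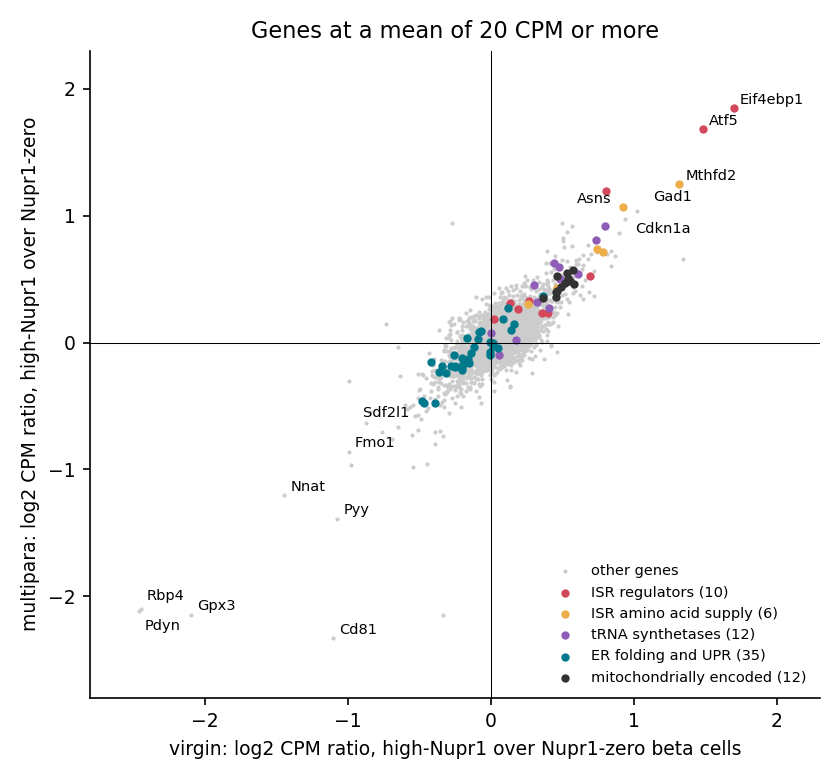
Log2 ratio of CPM, high-Nupr1 over Nupr1-zero beta cells, for the virgin (x axis) and the multipara library (y axis) for 3282 genes averaging 20 CPM or more; colours mark 5 gene lists, with the number of genes plotted. Most regulators and amino acid supply genes of the integrated stress response lay in the upper right, mitochondrially encoded genes near 0.5 on both axes, and most ER folding genes at or below 0.

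The list of integrated stress response regulators, which also holds genes with other roles such as Vldlr and Chac1, was higher in high-Nupr1 cells. This list and the others below were chosen with earlier results of these data known. Of 13 compared, 6 were called higher (Trib3, Eif4ebp1, Atf5, Vldlr, Chac1 and Sesn2) against 0.96% of all genes. Ratios above 0 in both libraries were seen for 13 of 13, against 42.4% of all genes. The median log2 ratio was 0.69 in the virgin library and 0.52 in the multipara one. Matched for mitochondrial share, the medians were 0.47 and 0.42 and 4 of 13 were called. Atf5, a transcription factor of the same family as Atf4, stood at 260 CPM in virgin high-Nupr1 cells and 93.2 CPM in Nupr1-zero cells. In the multipara library it stood at 249.2 and 77.7 CPM. The log2 ratios were 1.48 (1.40 to 1.56) and 1.68 (1.58 to 1.78), and the matched ratios 1.06 and 1.16. Thinned to 10000 UMIs, 85.1% of virgin and 88.4% of multipara high-Nupr1 cells had an Atf5 UMI, against 47.0% and 41.1% of Nupr1-zero cells. In both libraries a larger share of high-Nupr1 cells than of Nupr1-zero cells held Atf5.

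Eif4ebp1 encodes a repressor of cap-dependent translation. It was at 46.5 against 14.3 CPM in the virgin and at 42.4 against 11.8 CPM in the multipara library, log2 ratios of 1.70 (1.505 to 1.89) and 1.85 (1.595 to 2.11). Trib3, a pseudokinase that feeds back on ATF4, was at 10.5 against 2.97 CPM and 7.57 against 2.004 CPM. Chac1, which degrades glutathione, was at 28.9 against 16.5 CPM and 26.9 against 11.8 CPM. The same direction held in both libraries for each of these genes. Sesn2, which restrains mTORC1 signalling, had ratios of 0.72 and 0.87, and Vldlr, a lipoprotein receptor, of 0.83 and 0.66. With matching these came to 0.51 and 0.65 for Sesn2 and 0.35 and 0.26 for Vldlr, so that neither was then called.

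The upstream and pro-apoptotic members differed less. Atf4 itself was at 289 against 239 CPM in the virgin and at 278 against 222 CPM in the multipara library, log2 ratios of 0.27 and 0.33. Ddit3, which encodes the pro-apoptotic factor CHOP, was at 177 against 155 CPM and at 227 against 189 CPM. Atf3, another stress-induced factor, was at 197 against 154 CPM and 254 against 216 CPM. Ppp1r15a, whose product directs dephosphorylation of eIF2, had ratios of 0.02 and 0.18. None of these 4 genes reached a 1.5-fold difference in either library. Atf4 is controlled largely at translation, which these data do not measure.

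Genes that supply amino acids were higher as a group. Of 16 compared, 11 were called higher against 0.96% of all genes, and 16 of 16 had ratios above 0 in both libraries against 42.4%. The median log2 ratio was 0.84 in the virgin library and 0.85 in the multipara one. Matched for mitochondrial share, the medians were both 0.70, 8 of 16 were called and 16 of 16 remained above 0. With that matching 35 genes of all those compared were called higher. The sum of the list was 561 CPM in virgin high-Nupr1 and 328 CPM in Nupr1-zero cells, and 538 and 317 CPM in the multipara library.

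Within that list the serine and one-carbon genes had high ratios. Phgdh, the first enzyme of serine synthesis, was at 29.3 against 7.47 CPM in the virgin and at 27.7 against 6.33 CPM in the multipara library. Psat1, the next enzyme, was at 6.82 against 1.52 CPM and 5.02 against 1.28 CPM, and Psph, the last, at 16.6 against 7.79 CPM and 16.3 against 6.41 CPM. All 3 steps of serine synthesis were therefore at least 1.5-fold higher in both libraries, and they were still called after matching. The mitochondrial folate enzymes followed the same direction. Mthfd2 was at 64.9 against 26.0 CPM and 59.5 against 25.1 CPM, Aldh1l2 at 20.2 against 4.42 CPM and 17.4 against 5.05 CPM, and Shmt2 at 8.62 against 4.25 CPM and 10.2 against 4.01 CPM.

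Asns, which makes asparagine, was at 88.4 against 46.6 CPM in the virgin and 85.5 against 40.9 CPM in the multipara library, log2 ratios of 0.92 (0.80 to 1.04) and 1.06 (0.92 to 1.21). Pck2, the mitochondrial form of phosphoenolpyruvate carboxykinase, was at 40.9 against 23.7 CPM and 35.0 against 21.4 CPM. Slc7a5, a transporter of large neutral amino acids, was at 36.6 against 21.8 CPM and 36.3 against 21.8 CPM. Its partner subunit Slc3a2 had smaller ratios, 0.46 and 0.43. Gpt2 and Slc1a4 were also called, while Slc7a1, Aldh18a1, Slc38a2 and Pycr1 were above 0 in both libraries but not past 1.5-fold in both. After matching, Pck2 had ratios of 0.67 and 0.55 and Slc7a5 of 0.49 and 0.54, and neither was called.

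Among 20 tRNA synthetases and related genes compared, 2 were called higher, against 0.96% of all genes. These were Yars and Sars, which charge tyrosine and serine tRNAs. Sars was at 148 against 89.3 CPM in the virgin and 149 against 84.98 CPM in the multipara library. Yars was at 27.7 against 15.9 CPM and 24.1 against 12.7 CPM. The median log2 ratios were 0.31 and 0.32, and 16 of 20 were above 0 in both libraries against 42.4% of all genes. Aars, Xpot, Eprs, Iars, Tars, Cars and Nars had ratios between 0.31 and 0.75, whereas Dars, Farsa, Hars, Kars and Qars had ratios between -0.10 and 0.08. With matching the medians were 0.23 and 0.20 and 0 of 20 were called.

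ER folding genes did not share this direction. Of 37 compared, 0 were called in either direction, where 0.96% of all genes were called higher and 0.941% lower. In both libraries 23 were below 0, against 24.3% of all genes. The median log2 ratio was -0.16 in the virgin library and -0.10 in the multipara one. Hspa5, which encodes the major ER chaperone BiP, was at 1032 CPM in virgin high-Nupr1 and 1325 CPM in Nupr1-zero cells, and at 1263 and 1485 CPM in the multipara library. Sdf2l1, an ER chaperone cofactor, was at 125 against 174 CPM and at 191 against 262 CPM. Creld2 was at 46.1 against 63.8 CPM and 66.2 against 92.1 CPM, and Fkbp11, a prolyl isomerase of the ER, at 62.4 against 81.7 CPM and 108 against 150 CPM. These 4 genes had values in the high-Nupr1 cells below those of the Nupr1-zero cells in both libraries. The intervals of all 4 ratios lay below 0 in each library, for example for Fkbp11 (-0.52 to -0.26 and -0.57 to -0.39) and Sdf2l1 (-0.57 to -0.40 and -0.52 to -0.39). Sel1l, a component of ER-associated degradation, had the highest ratios of the list, 0.37 in each library. Xbp1 was at 176 against 170 CPM and 177 against 182 CPM. With matching, the medians of the list were -0.06 and -0.03, and 18 of 37 were below 0 in both libraries. Values of all genes under this matching are not given here, so the matched list was not set against them. Over all alternatives, the median of all genes ran from -0.05 to 0.09 in the virgin and from -0.04 to 0.07 in the multipara library. Fkbp11 then went from -0.39 and -0.48 to -0.10 and -0.27, and Sdf2l1 from -0.48 and -0.46 to -0.23 and -0.20. The matched ratios were -0.24 and -0.13 for Hspa5 and -0.19 and -0.31 for Creld2.

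**Figure D3:**
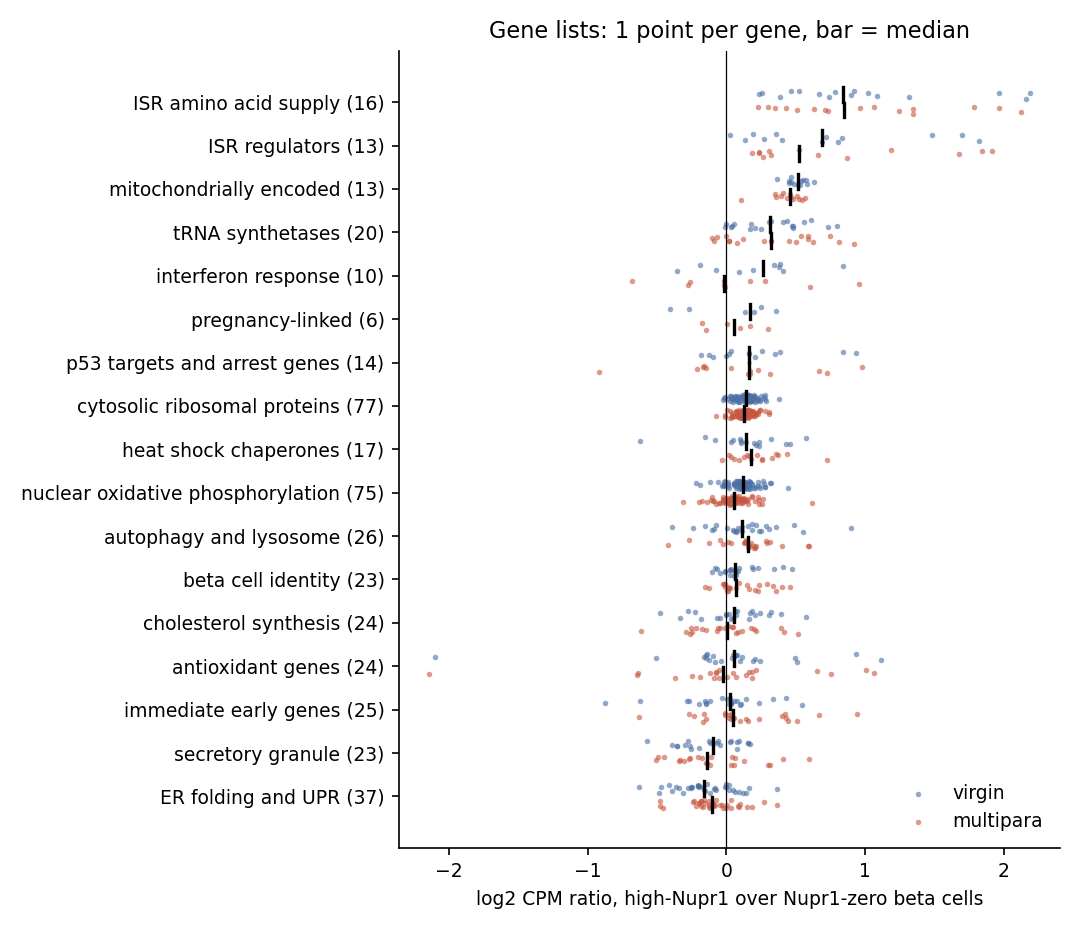
Log2 ratio of CPM, high-Nupr1 over Nupr1-zero beta cells, for each gene of 17 lists with at least 6 compared genes; points are genes, blue for the virgin and red for the multipara library, and black bars are medians. Amino acid supply genes (medians 0.84 and 0.85) and ER folding genes (-0.16 and -0.10) had the highest and the lowest virgin medians. The lowest multipara median was that of secretory granule genes (-0.14).

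All 13 mitochondrially encoded genes were above 0 in both libraries, against 42.4% of all genes, with median log2 ratios of 0.52 and 0.46. Past 1.5-fold higher in both were 0 of 13, against 0.96% of all genes. For example mt-Nd4, a subunit of respiratory complex I, was at 4022 against 2771 CPM in the virgin and 3333 against 2340 CPM in the multipara library. Nuclear genes of oxidative phosphorylation had medians of 0.12 and 0.05 over 75 genes. Weights on the mitochondrial share removed the difference of the mitochondrially encoded list by construction, to medians of 0.02 and -0.00.

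Growth arrest and antioxidant lists held single genes with large ratios. Cdkn1a, the cell cycle inhibitor p21, was at 46.2 against 24.1 CPM in the virgin and 44.8 against 22.8 CPM in the multipara library, although 13.4% of its UMIs in multipara Nupr1-zero cells came from 1 cell. Trp53inp1, a p53-induced gene, was at 46.3 against 25.8 CPM and 60.8 against 36.8 CPM. The other 12 genes of the p53 and arrest list were not called, and the list medians were both 0.16. Hmox1 and Nqo1, which respond to oxidative stress, were called at 6.06 against 2.80 CPM and 5.21 against 2.73 CPM in the virgin library, with ratios of 1.01 and 1.06 in the multipara library. Neither was called with matching. The metallothioneins Mt1 and Mt2 had ratios of 0.50 and 0.51 in the virgin and of 0.65 and 0.76 in the multipara library.

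Further lists are given by their medians. These were 0.14 and 0.18 for 17 heat shock chaperones, 0.15 and 0.13 for 77 cytosolic ribosomal proteins, 0.11 and 0.16 for 26 autophagy and lysosome genes, and 0.03 and 0.05 for 25 immediate early genes. Optn was the 1 autophagy gene called higher and Gadd45b the 1 immediate early gene called lower. Interferon response genes had medians of 0.27 and -0.01 over 10 genes, of which B2m was called higher, with 17.5% of its UMIs in virgin high-Nupr1 cells from 1 cell. Cholesterol synthesis genes had medians of 0.06 and 0.00, and pregnancy-linked genes of 0.17 and 0.05. Proliferation genes were too sparse, with 3 of 18 compared. Of 17 genes of immature or disallowed beta cell programmes 3 were compared, with medians of -1.11 and -2.12, and Pdyn and Cd81 were called lower. Antioxidant genes had medians of 0.06 and -0.02 over 24 genes.

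Beta cell identity genes had medians of 0.06 and 0.07 over 23 compared genes, beside 0.06 and 0.04 for all genes. Of the 23, 0 were called, where 0.96% of all genes were called higher and 0.941% lower. Mafa, a factor of mature beta cells, was at 326 against 329 CPM in the virgin and 364 against 285 CPM in the multipara library. Ucn3, a maturity marker, was at 284 against 214 CPM and 278 against 220 CPM. Secretory granule genes had medians of -0.10 and -0.14, with Chga at 5992 against 7859 CPM and 5462 against 7442 CPM. Of these 23 genes, 14 were below 0 in both libraries and 8 above, against 24.3% and 42.4% of all genes. Ratios mostly below 0 were thus not confined to ER folding genes. Matched for mitochondrial share, the granule medians were -0.13 and -0.11, with 16 genes below 0 in both libraries and 3 above. Ins1 and Ins2, which the rule used, had ratios of -0.16 and -0.05 in the virgin and -0.10 and -0.04 in the multipara library.

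Outside those lists, 4 further genes were among the 15 with the highest ratios at a mean of at least 20 CPM, next to Eif4ebp1, Atf5, Mthfd2, Cdkn1a, Asns, Chac1, Yars, Slc7a5, Sars, Trp53inp1 and Pck2. Gad1, which makes GABA from glutamate, was at 59.1 against 29.1 CPM in the virgin and 42.3 against 20.6 CPM in the multipara library. Msln, a surface glycoprotein, was at 58.5 against 31.5 CPM and 21.3 against 11.7 CPM, with 13.0% of its UMIs in multipara Nupr1-zero cells from 1 cell. Ttc28 and Creg1 completed the set, with ratios of 0.74 and 0.72 and of 0.70 and 0.70. Of the 15 genes, 8 were still called after matching for mitochondrial share, and Gad1, Ttc28 and Creg1 were not.

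Genes lower in high-Nupr1 cells were led by a small group with low levels. Pdyn, which encodes the opioid precursor prodynorphin, was at 5.49 against 30.3 CPM in the virgin and 15.4 against 66.8 CPM in the multipara library. The log2 ratios were -2.46 (-2.87 to -2.08) and -2.12 (-2.30 to -1.94), and 1 cell held 16.4% of its UMIs in virgin Nupr1-zero cells. Rbp4, a retinol carrier, was at 10.5 against 57.4 CPM and 12.7 against 54.4 CPM. Rbp4 is also a delta cell marker, and Sst, which the beta cell rule limited, was at 84.96 against 87.6 CPM and 59.9 against 69.2 CPM. The part of delta cell RNA in the Rbp4 values was not tested. Gpx3, a secreted glutathione peroxidase, was at 7.67 against 32.9 CPM and 16.5 against 72.9 CPM. After thinning to 10000 UMIs, 3.64% of virgin and 7.87% of multipara high-Nupr1 cells had a Pdyn UMI, against 12.6% and 25.2% of Nupr1-zero cells. For Gpx3 these shares were 7.62% and 11.4% against 21.7% and 39.0%.

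Cd81, a tetraspanin, was at 18.3 against 39.3 CPM in the virgin and 7.18 against 36.2 CPM in the multipara library. Nnat, an imprinted gene that affects insulin processing, was at 11.3 against 30.7 CPM and 16.6 against 38.1 CPM. Pyy, which the beta cell rule limited, was at 73.1 against 154 CPM and 54.3 against 142 CPM, and 14.3% of its UMIs in multipara Nupr1-zero cells came from 1 cell. These 6 genes were still called after matching for mitochondrial share, whereas Dapl1, Fmo1, Lpl, Tmem27, Ccnd1 and Gadd45b lost their call. The other 3 of the 15 lowest genes, Cd200, Igfbp7 and Dbpht2, were not past 1.5-fold in both libraries. With matching Dbpht2 was called, with ratios of -0.60 and -1.14 against -0.55 and -0.98 without, and Cd200 and Igfbp7 were not. Fmo1, a flavin monooxygenase, moved from -0.99 to -0.21 in the virgin and from -0.86 to -0.28 in the multipara library. Of the 97 lower genes, 38 were called with matching, and of the 99 higher genes 25 were. With cells holding at least 5 UMIs of other cell types left out, 67 of the lower and 90 of the higher genes were called. Such cells made up 12.6% of virgin Nupr1-zero and 5.26% of virgin high-Nupr1 cells. In the multipara library they made up 3.18% and 2.45%.

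The levels followed the number of Nupr1 UMIs, in classes of 0, 1 to 4, 5 to 9 and 10 or more among beta cells with at least 10000 UMIs. The classes held 894, 313, 144 and 158 virgin cells and 377, 267, 194 and 454 multipara cells. The amino acid supply genes summed to 328, 443, 482 and 634 CPM in the virgin and to 317, 360, 461 and 568 CPM in the multipara library. Atf5 went from 93.2 over 175 and 221 to 296 CPM in the virgin, and from 77.7 over 138 and 208 to 266 CPM in the multipara library. Each step was upward for both, and cells with 1 to 4 UMIs lay between the outer classes. The median mitochondrial share rose across the same classes, from 3.45% over 4.89% and 5.55% to 5.85% in the virgin and from 3.06% over 3.29% and 4.28% to 4.92% in the multipara library.

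ER folding genes went the other way, from 9798 over 9004 and 8764 to 8695 CPM in the virgin, and from 11431 over 11195 and 10956 to 10296 CPM in the multipara library. Gpx3 went from 32.9 over 11.5 and 10.6 to 4.93 CPM in the virgin and from 72.9 over 41.5 and 22.4 to 14.3 CPM in the multipara library. Fmo1 in the multipara library was at 117 and 124 CPM in the lower classes and at 89.0 and 55.0 CPM in the upper ones. Ddit3 did not rise step by step: the virgin values were 155, 139, 161 and 192 CPM, and the multipara values 189, 240, 235 and 225 CPM.

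**Figure D4:**
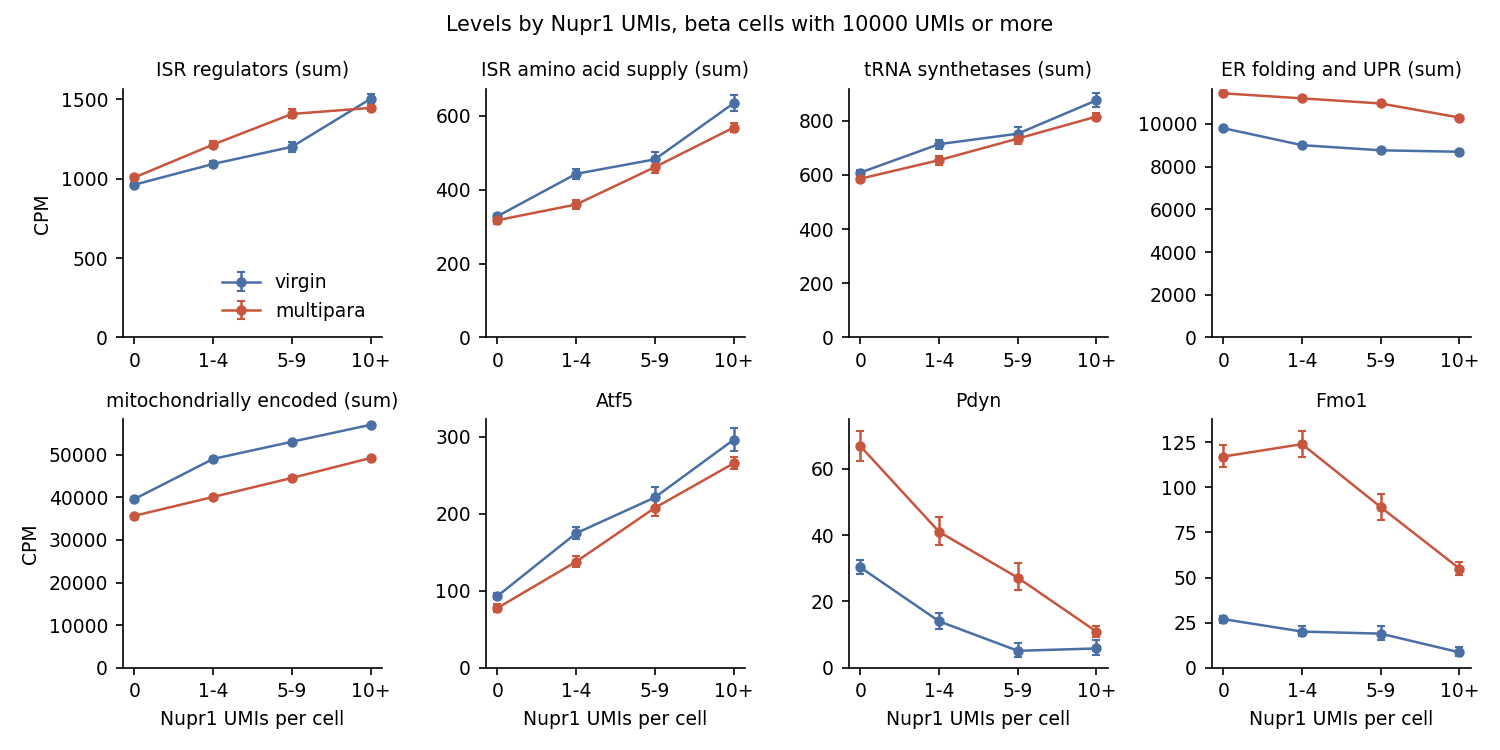
Level in CPM (linear axes from 0) by Nupr1 UMIs per beta cell for the sums of 5 gene lists and for Atf5, Pdyn and Fmo1, with exact 95% Poisson intervals of the counts; blue is the virgin and red the multipara library. Stress response lists and Atf5 rise and ER folding genes, Pdyn and Fmo1 fall from the first to the last class in both libraries, with ER folding genes higher in the multipara library in every class.

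The libraries were then compared within each Nupr1 class, with 1 value per library and class. The high-Nupr1 class was not alike in the libraries, since 158 of 304 virgin and 454 of 652 multipara cells had 10 or more Nupr1 UMIs, and list levels differed between 5 to 9 and 10 or more UMIs. The median log2 ratio of multipara over virgin across all genes was -0.09 in high-Nupr1 and -0.07 in Nupr1-zero cells. Of 10356 genes compared in the high-Nupr1 cells, 2.23% were at least 1.5-fold higher and 4.52% at least 1.5-fold lower in the multipara library, and of 10741 in Nupr1-zero cells 1.94% and 4.33%.

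Nupr1 was at 459 CPM in multipara and 364 CPM in virgin high-Nupr1 cells, a log2 ratio of 0.33 (0.28 to 0.39). Over all beta cells it was at 251 and 91.1 CPM, a log2 ratio of 1.46. Medians of the integrated stress response lists were near 0 inside the classes, which were themselves cut on Nupr1. Regulators had a median multipara over virgin ratio of -0.09 in high-Nupr1 and -0.11 in Nupr1-zero cells, and amino acid supply genes of -0.05 and -0.04. Summed over the list, the ratios for regulators were 0.08 (0.05 to 0.11) and 0.07 (0.04 to 0.10). For amino acid supply genes the summed ratios were -0.06 and -0.05. The sign depended on the processing: over the alternatives tried, the high-Nupr1 medians ran from -0.20 to 0.03 for regulators and from -0.15 to 0.07 for amino acid supply genes. Over all beta cells, whose share of high-Nupr1 cells differs between the libraries, the medians were 0.06 and 0.16. Atf5 had a ratio of 0.29 over all beta cells, -0.06 (-0.13 to 0.00) within high-Nupr1 cells and -0.26 (-0.37 to -0.16) within Nupr1-zero cells. With TMM factors the high-Nupr1 value of Atf5 was 0.05.

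ER folding genes behaved differently. Their median multipara over virgin ratio was 0.28 in high-Nupr1 and 0.20 in Nupr1-zero cells, with 35 and 36 of 37 genes above 0, against 34.0% and 36.8% of all genes. Fkbp11 had ratios of 0.79 (0.67 to 0.92) and 0.88 (0.79 to 0.97), and Sdf2l1 of 0.62 (0.53 to 0.71) and 0.59 (0.53 to 0.66). Both genes were higher in the multipara library in each Nupr1 class and lower in high-Nupr1 cells in each library. Atf3, a member of the regulator list, and Ddit3 were also higher in the multipara library in both classes. The ratios were 0.36 and 0.49 for Atf3 and 0.36 and 0.29 for Ddit3. The inducible heat shock genes Hspa1a and Hspa1b, which share nearly identical sequence, had a summed ratio of 0.33 (0.28 to 0.38) in high-Nupr1 and 0.43 (0.38 to 0.48) in Nupr1-zero cells.

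The 10 genes with the highest multipara over virgin ratio in high-Nupr1 cells, at a mean of at least 50 CPM there, were Hmgcs1, Hopx, Fkbp11, Fh1, Chd7, Fdps, Sdf2l1, Zfp36, Rasd1 and Npas4. Hmgcs1 and Fdps are enzymes of cholesterol synthesis, and that list had a median of 0.27 in both classes. Hmgcs1 was at 85.7 CPM in multipara and 37.5 CPM in virgin high-Nupr1 cells, with ratios of 1.19 (1.04 to 1.35) and 0.96 (0.84 to 1.08) in the classes. In Nupr1-zero cells the other 9 genes also had ratios above 0, from 0.39 to 0.88. Fmo1 and Matn2, a gene linked to pregnancy, lay below that level limit and had ratios of 2.25 and 1.64 in high-Nupr1 and 2.12 and 1.41 in Nupr1-zero cells. Fmo1 was at 64.5 CPM in multipara and 13.5 CPM in virgin high-Nupr1 cells.

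The 10 lowest were Ighg2c, Igkc, Defb1, Pde5a, Marcks, Gcg, Il6ra, Ttr, Il1r1 and Igfbp7. Ighg2c and Igkc are immunoglobulin genes, and 1 virgin high-Nupr1 cell held 99.4% and 96.6% of their UMIs there. Defb1 was at 62.5 against 124 CPM and Pde5a, which degrades cyclic GMP, at 39.0 against 75.3 CPM. The alpha cell genes Gcg, which the beta cell rule limited, and Ttr were at 583 against 958 CPM and 451 against 702 CPM. Their ratios were like these in Nupr1-zero cells (-0.70 and -0.51). Cells chosen by Gcg numbered 513 in the multipara and 1070 in the virgin library. The part of alpha cell RNA in the Gcg and Ttr values was not tested. Msln was lower in the multipara library in both classes, by -1.46 (-1.63 to -1.28) and -1.43 (-1.69 to -1.17).

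**Figure D5:**
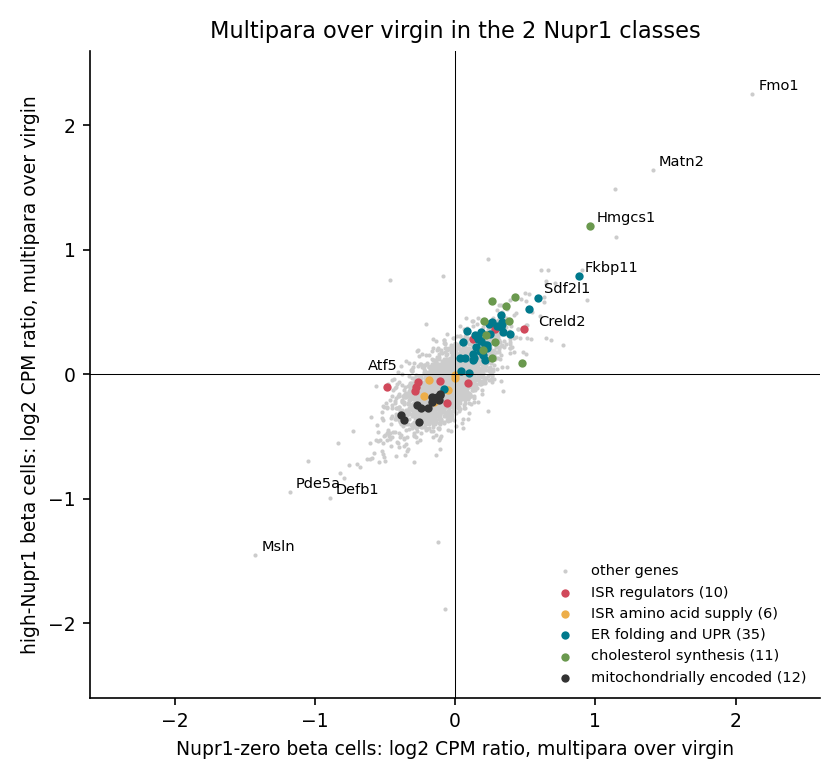
Log2 ratio of CPM, multipara over virgin library, in Nupr1-zero (x axis) and high-Nupr1 (y axis) beta cells for 3282 genes averaging 20 CPM or more; colours mark 5 gene lists with the number of genes plotted, and 1 gene, Igkc, lies outside the axes. ER folding and cholesterol synthesis genes lie mostly above 0 on both axes and mitochondrially encoded genes below 0, with Fmo1 at 2.12 and 2.25 and Msln at -1.43 and -1.46.

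Cd81 was the named lower gene with the most unlike values between the classes. Its multipara over virgin ratio was -1.35 (-1.65 to -1.04) in high-Nupr1 cells and -0.12 (-0.28 to 0.04) in Nupr1-zero cells. The levels behind these ratios were 7.18 against 18.3 CPM and 36.2 against 39.3 CPM. The intervals cover counting error only, and the difference between the classes was not tested across animals.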

How the data were processed

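The deposited matrices give UMI counts, not normalized, for 31053 genes in each barcode. The submitters' processing notes name Cell Ranger 3.1.0, Seurat 3.0 and the builds GRCm38 and mm10. Cell filters, the beta cell rule and the Nupr1 limits are those given above. The members and the gene lists were chosen with earlier results of these data known. UMIs were summed over the cells of a group and scaled to 1000000 (CPM). The virgin library held 94853806 UMIs and the multipara library 82503776. Intervals are exact at 95% (Poisson for CPM, binomial for ratios and Clopper-Pearson for shares) and cover counting error only. A gene with 0 UMIs in a group was set at 3 counts. With 1 library per group no test was run, and a call is a fold of 1.5 in both libraries. Named genes are the 15 with the highest smaller and the 15 with the lowest larger log2 ratio at a mean of at least 20 CPM, list members, and the 10 highest and 10 lowest multipara over virgin ratios in high-Nupr1 cells at 50 CPM. Doublets were kept in the main values, and Scrublet (scanpy 1.11.5) calls were removed as an alternative. The scripts were tested on simulated counts. Gene positions were from GENCODE M21, and promoters from RefSeq (GRCm38.p6). In all, 17 alternatives were planned and 2 were added after the data were seen: weights on mitochondrial share in bins of 0.5%, and leaving out cells with at least 5 UMIs of other cell types. TMM factors came from edgeR 4.0.16 (R 4.3.3), and python 3.11.15, numpy 2.4.6, scipy 1.17.1 and pandas 2.3.3 were used.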

Additional observations from a re-analysis of the deposited data

Results flagged for a closer look

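Hspb1, a small heat shock protein gene, differed past 1.5-fold in opposite directions. Its log2 ratio of high-Nupr1 over Nupr1-zero cells was -0.62 in virgin cells, at 5.40 against 8.32 CPM, and 0.73 in multipara cells, at 7.57 against 4.57 CPM. In multipara Nupr1-zero cells 24.6% of its UMIs came from 1 cell. The difference between the libraries was not tested.

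Beta cell droplets left out for a mitochondrial share of 10% or more are not used above. In the multipara library they held Nupr1 at 292 CPM (266 to 320) over 143 droplets, above 175 CPM (156 to 196) over 118 droplets in the virgin library. At least 5 Nupr1 UMIs were seen in 18.2% (12.2 to 25.5) and 16.9% (10.7 to 25.0) of them, at median depths of 6161 and 10949 UMIs.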

How the results depend on the processing

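No paired analysis was possible because each group is 1 library, and for the same reason no replicate could be left out. Of 430 recomputed main values, 376 stayed close: shares within the counting interval, ratios and list medians within the typical counting error of their genes, and counts of genes within 1.5 times. The direction of the amino acid supply list (medians 0.70 to 1.06 in the virgin and 0.70 to 0.96 in the multipara library), of the regulators (0.47 to 0.93 and 0.38 to 0.59) and of the ER folding list (-0.27 to -0.06 and -0.18 to -0.03) was kept under all alternatives run. For the ER folding list the medians nearest 0 came from matching in mitochondrial share, where 18 of 37 genes were below 0 in both libraries. Those medians were not set against the median of all genes under that matching. The cause of the changes below was not tested. Virgin values stand before multipara values.

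With Nupr1-zero cells matched in mitochondrial share, chosen after seeing the data, medians were -0.0646 and -0.0263 for ER folding genes, 0.47 for virgin regulators, 0.0155 and -0.000807 (reversed in sign) for mitochondrially encoded genes, and 35 genes were higher. Beta cell identity (-0.0582) and interferon genes (-0.19) reversed in the virgin library. Leaving out Ins1, Ins2 and Nupr1 from the total gave ER medians of -0.27 and -0.18, mitochondrially encoded medians of 0.41 and 0.38, a virgin oxidative phosphorylation median of 0.0101, 63 higher and 151 lower genes, and reversed beta cell identity to -0.0461 in the virgin library. It moved the median of all genes from 0.06 to -0.05 in the virgin library and from 0.04 to -0.04 in multipara cells. With 10 or more UMIs per gene 200 genes were higher and 326 lower, and with 200 or more 47 and 30, with a virgin regulator median of 0.55. For multipara over virgin, 10 UMIs gave 569 higher and 1132 lower genes in high-Nupr1 and 606 and 1188 in Nupr1-zero cells, and 200 UMIs gave 73, 117, 61 and 125. Thinning to 10000 UMIs left 63 lower genes and a virgin mitochondrially encoded median of 0.46.

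Choosing cells by 10 or more Nupr1 UMIs gave shares of 9.42% and 31.4%, a virgin regulator median of 0.93 and mitochondrially encoded medians of 0.58 and 0.50. With 3 or more, shares were 24.5% and 53.1% and the multipara mitochondrially encoded median was 0.43. Choosing by 2 UMIs after thinning gave 60 higher and 52 lower genes, a virgin regulator median of 0.55, mitochondrially encoded medians of 0.48 and 0.41, and reversed the multipara pregnancy-linked median to -0.18. Matching depth gave mitochondrially encoded medians of 0.57 and 0.50. A limit of 5% mitochondrial share gave 0.26 and 0.22, with shares of 11.3% and 36.3%. TMM gave 0.46 for virgin mitochondrially encoded genes, 288 lower genes for multipara over virgin in high-Nupr1 cells, and an ER median of 0.39 there, and median-of-ratios factors gave 0.46, 294 and 0.39, with 0.27 in Nupr1-zero cells.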
